A study of Mus musculus with 6 samples.

Results

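Hematopoietic stem cells of mouse bone marrow that expressed BCR/ABL were compared with cells that carried only an empty vector, on 4 of the 6 arrays of the series. The rule for this comparison used the columns titled for BCR/ABL, 2 arrays, and for the vector, 2 arrays. All 4 samples were GFP+ Lin- c-Kit+ Sca-1+ cells sorted from the long bones of mice described as CML mice, and the labels name no imatinib treatment for these 4 samples. The vector was marked by GFP and lacked BCR/ABL. Both remaining arrays, of BCR/ABL cells from imatinib-treated mice, are in neither group compared. They entered the joint normalization of the arrays, the choice of the value that stands for a gene, and the shared estimate of the spread. The labels name the cells as hematopoietic stem cells and give the marrow as their source. The sources used here do not give the promoter that drives BCR/ABL, the strain or age of the mice, or whether replicate arrays hold RNA of different mice, of pools or of one extract. The p-values below therefore cover only the variation among the samples as deposited, and that variation may be technical.

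BCR/ABL is the fusion kinase of chronic myeloid leukaemia (CML), made by joining BCR to the tyrosine kinase ABL1, and it signals without a cytokine through the RAS and ERK cascade, PI3 kinase and STAT5. In chronic phase the disease arises in a stem cell and expands the myeloid lineages, with basophils often raised, while imatinib blocks the kinase. Lin- c-Kit+ Sca-1+ cells hold stem cells together with multipotent progenitors, some of which already express lymphoid or myeloid genes. RNA was measured in bulk, so fewer cells of a type and less RNA per cell cannot be told apart.

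Levels are given as log2(signal + 16) after quantile normalization, a scale whose floor is 4, and differences are BCR/ABL minus vector on that scale, which understates the change of dim genes. A probe set is a group of short probes for one transcript, and many genes have several. The distance of a probe set is the gap between the lowest BCR/ABL array and the highest vector array, or the reverse for a lower gene, and it is 0 where the groups overlap. A probe set with a distance of at least 1 is called 2-fold apart, because it then differs by at least 2-fold from each vector array separately. Levels of different probe sets cannot be compared with each other.

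The sorted-cell label was checked against 14 measured of 16 listed genes of Lin- c-Kit+ Sca-1+ cells. Kit, the stem cell factor receptor, lay at 10.71 and 11.06 in the vector arrays and at 10.37 and 10.13 in the BCR/ABL arrays, and Cd34 lay between 12.10 and 12.52 in all 4. Of these 14 genes, 0 passed the limma test and 5 had an unadjusted p under 0.05, beside 2306 of all 18193 genes (12.7%). Among the 14, 1 was 2-fold apart. That gene was Thy1, a surface glycoprotein, at 7.66 and 8.31 in the vector arrays against 10.70 and 10.89 in the BCR/ABL arrays (limma adjusted p = 0.0705). The primary granule genes Mpo and Elane, which myeloid progenitors already express, lay between 11.74 and 13.44 on all 4 arrays. The replicate arrays of the vector were less alike than those of BCR/ABL: 3694 probe sets differed by over 2-fold between vector arrays 1 and 2, against 860 between both BCR/ABL arrays. Over the 35877 probe sets, which are not independent of each other, the correlation of vector arrays 1 and 2 was 0.971, below that of vector array 2 with BCR/ABL arrays 1 (0.976) and 2 (0.980). Both BCR/ABL arrays correlated at 0.990. Late neutrophil granule genes differed between the vector arrays, with Ltf, the gene of lactoferrin, at 11.71 in vector array 1 and at 7.29 in vector array 2, against 11.94 and 12.29 in the BCR/ABL arrays. What separated the vector arrays was not tested.

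Far more probe sets were 2-fold higher than lower once each vector array was used separately. Of 35877 probe sets tested, 458 (1.28%) were 2-fold apart and higher in BCR/ABL cells, and 120 (0.334%) were 2-fold apart and lower. Against vector array 1 alone, 1758 probe sets were 2-fold higher and 1395 were 2-fold lower in both BCR/ABL arrays. Against vector array 2 alone the numbers were 905 and 327. The 458 that held against both were 26.1% of the first higher set and 50.6% of the second, and the 120 were 8.60% and 36.7% of the lower sets. Most of the lower differences from vector array 1 thus did not hold against vector array 2. With a constant of 1 added to the signal in place of 16, 1110 probe sets were 2-fold apart and higher and 643 lower, so the share that was higher moved from 79.2% to 63.3%.

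**Figure D1:**
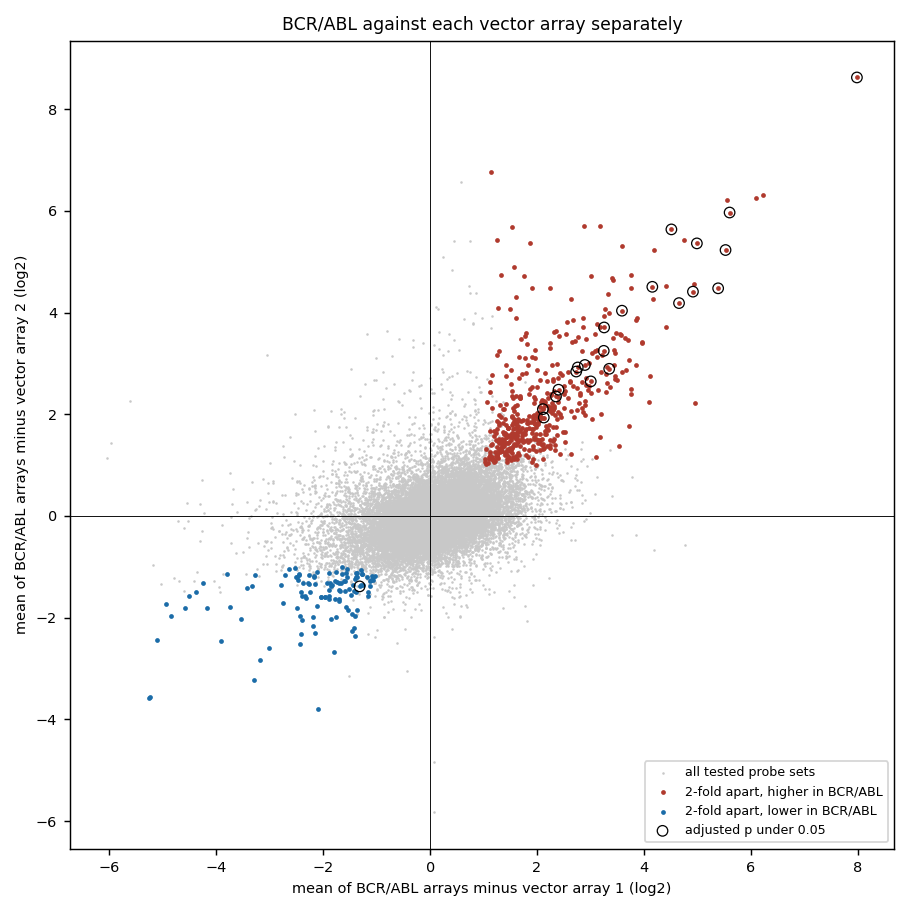
The mean of the BCR/ABL arrays minus vector array 1 (x axis, log2) against the same mean minus vector array 2 (y axis, log2), with 1 point for each of the 35877 tested probe sets. The 458 probe sets 2-fold higher (red) extend further from 0 than the 120 that are 2-fold lower (blue), and the 22 with an adjusted p under 0.05 (circles) all lie within those sets.

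By the limma test, 22 probe sets (0.0613%) passed a Benjamini-Hochberg adjusted p of 0.05, 21 higher and 1 lower, and all 22 were 2-fold apart. At an unadjusted p under 0.05 there were 4121, of which 2261 were higher and 1860 lower. The 22 fell to 2 without vector array 2 and to 0 without either BCR/ABL array, and became 38 without vector array 1. With the 4 arrays compared fitted alone, 17 passed, 14 higher and 3 lower, and 11 of the 20 genes called were shared. The called genes that did not pass in that fit were Akr1c12, Akr1c19, Car4, Cd200r3, Cyp11a1, Lat, Plxdc2, Timp1 and Trp53inp1. Their limma adjusted p-values there ran from 0.0662 for Cd200r3 to 0.172 for Timp1. The values in that fit were still normalized together with the imatinib arrays. With 2 arrays against 2, an exact two-sided permutation test of a single gene cannot go below 0.333.

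With 1 value per gene, from its brightest probe set, 306 of 18193 genes (1.68%) were 2-fold apart and higher and 64 (0.352%) were lower. The median log2 fold change was 2.15 among the 306 and its largest value was 8.30. The lower genes had a median of -1.77 and reached -4.42. A distance of at least 4-fold was seen for 101 of the higher and 8 of the lower genes, and a distance of at least 16-fold for 14 and 0. In 106 of the 306 higher genes both vector arrays lay under 5, close to the floor of the scale, which is 34.6% against 30.2% of all genes. Close to the threshold, 28 genes had a distance between 1 and 1.05 and 32 a distance between 0.95 and 1.

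The differences described in most detail below are those that several probe sets of a gene share. Of 9010 genes with at least 2 probe sets, 67 (0.744%) had at least 2 of them 2-fold apart and higher with none lower, and 10 (0.111%) had the same pattern lower. In all, 198 of the 9010 genes had any probe set 2-fold higher and 66 had any 2-fold lower, and 0 had probe sets 2-fold apart in both directions. All probe sets had the same sign in 60 of the 67 higher genes and in 8 of the 10 lower ones, and all of them were 2-fold apart in 35 and 3. Of the 67, 7 had a probe set that passed the limma test, and of the 10, 0 did. For the other genes the values below are a description, with the adjusted p of the brightest probe set given wherever it was under 0.08.

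The higher genes are described for the 20 with the largest distance in their second-best probe set, beginning with those for secreted proteins. Ccn3, a matricellular protein of the CCN family, lay at 4.64 and 4.55 in the vector arrays, near the floor, and at 11.39 and 10.35 in the BCR/ABL arrays. Its log2 fold change was 6.27 (SE 0.68, n = 2 arrays a group) with a limma adjusted p of 0.0751, and both of its probe sets were 2-fold apart, at 5.88 and 6.27. Hgf, the ligand of the MET receptor, lay at 7.60 and 7.10 against 10.77 and 10.60, and all 3 of its probe sets were 2-fold apart. Lipg, an endothelial-type lipase that acts on lipoproteins, lay at 9.04 and 6.20 against 11.97 and 11.84, again with 3 of 3 probe sets apart. The vector arrays of Lipg differed by more than those of Hgf, and its SE was 0.84 beside a log2 fold change of 4.29. Apoa1, the main protein of high-density lipoprotein, was higher in all 4 of its probe sets, by 2.03 to 2.74. Lama5, a laminin chain of basement membranes, lay at 4.37 and 4.28 against 8.58 and 8.49 in the brightest of 3 probe sets, of which 2 were apart. Crispld2, a secreted glycoprotein, lay at 4.23 and 5.08 against 8.01 and 7.04.

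Surface proteins among the 20 come next. Cd200r3, an activating receptor of the CD200 receptor family found on basophils and mast cells, rose from 7.73 and 7.28 to 11.10 and 10.88, by 3.48 (SE 0.23, limma adjusted p = 0.0217), and its other probe set differed by 3.67. The related inhibitory receptor Cd200r1, named after its values were seen, lay at 6.88 and 7.81 against 9.87 and 9.71, with both probe sets apart. Nt5e, the ectonucleotidase CD73 that makes adenosine outside the cell, lay at 5.62 and 6.0 against 10.51 and 10.61 in its brightest probe set. That is a log2 fold change of 4.75 (SE 0.49, limma adjusted p = 0.0751), although 1 of its 3 probe sets differed by -0.13. Plxdc2, a plexin-domain membrane protein, rose by 2.84 (SE 0.18, limma adjusted p = 0.0196). Tnfrsf9, the costimulatory receptor 4-1BB, lay at 6.10 and 4.40 against 9.85 and 9.54, so neither vector array reached either BCR/ABL array in spite of the gap between them. Its log2 fold change of 4.45 had an SE of 1.31, and 1 of its 3 probe sets differed by -0.13. Slc7a2, a transporter of arginine and other cationic amino acids, and Slc26a3, a chloride and bicarbonate exchanger, had log2 fold changes of 2.74 and 3.21 from low vector levels between 4.20 and 5.21. Each had 2 of 4 probe sets apart, and their lowest probe sets differed by 0.18 and -0.002.

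Inside the cell, Enah had the best supported difference. Enah encodes Mena, an actin regulator of the Ena/VASP family, and it rose from 6.69 and 7.16 to 11.44 and 11.25, by 4.42 (SE 0.21, limma adjusted p = 0.0125). All 6 of its probe sets were higher, by 1.66 to 4.66, and 5 were 2-fold apart. Hdc, the enzyme that makes histamine, rose from 10.40 in both vector arrays to 12.83 and 12.68, by 2.35 (SE 0.17, limma adjusted p = 0.0236), with its other probe set at 3.27. Rnf128, the E3 ubiquitin ligase GRAIL, lay at 8.46 and 7.66 against 11.98 and 11.47 in the brighter of 2 probe sets, both of which were apart. Rnf217, another RING-type ligase gene, had a log2 fold change of 2.32 and 3 of 4 probe sets apart. Car4, a membrane-anchored carbonic anhydrase, had 2 probe sets with almost equal log2 fold changes of 2.42 and 2.44, of which the second passed the test (limma adjusted p = 0.0329) and the brighter one did not (0.104). Skap1, a T cell adaptor protein, was apart in 3 of 3 probe sets, by 1.91 to 2.19. Trgv4, a variable segment of the T cell receptor gamma locus, lay at 8.67 and 8.14 against 12.06 and 11.66 (limma adjusted p = 0.0778), yet 1 of its 3 probe sets differed by -0.25. The uncharacterised gene 4932438H23Rik completed the 20, with both probe sets apart at 2.50 and 2.61.

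The 10 lower genes included several of early lymphoid development. Dntt, the terminal transferase that adds bases at V(D)J junctions, lay at 13.08 and 12.98 in the vector arrays and at 10.76 and 10.56 in the BCR/ABL arrays. Its 3 probe sets were all apart, by -3.26 to -2.38. Ebf1, the early B cell transcription factor, lay at 12.04 and 9.27 against 6.85 and 8.05, with 3 of 5 probe sets apart and 1 that differed by 0.01. Il7r, the interleukin 7 receptor chain, lay at 11.08 and 10.01 against 8.43 and 8.96. In both genes the groups did not overlap, but vector array 1 lay further from the BCR/ABL arrays than vector array 2. Bach2, a repressor with roles in B cell development, and Arpp21, a gene expressed in immature lymphocytes, had log2 fold changes of -1.49 and -2.78.

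In the brightest probe sets of the other 5 lower genes, the vector arrays lay closer together than in those of Ebf1 and Il7r. Sdc1, the heparan sulphate proteoglycan syndecan-1, lay at 10.52 and 10.74 against 8.71 and 8.80, a log2 fold change of -1.88 (SE 0.19, limma adjusted p = 0.0705). Cnn3, an actin-binding calponin, was lower in all 6 of its probe sets and 2-fold apart in 4. Gria3, a glutamate receptor subunit gene, had log2 fold changes of -1.70 and -1.69 in its 2 probe sets. Sox4, a transcription factor of progenitors, was lower in all 8 probe sets, with log2 fold changes from -1.52 to -0.01 and 2 of them apart. Its brightest probe set was not among these 2, with a log2 fold change of -0.52. Kansl1l had 2 of 6 probe sets apart and 1 with a log2 fold change of 0.12.

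**Figure D2:**
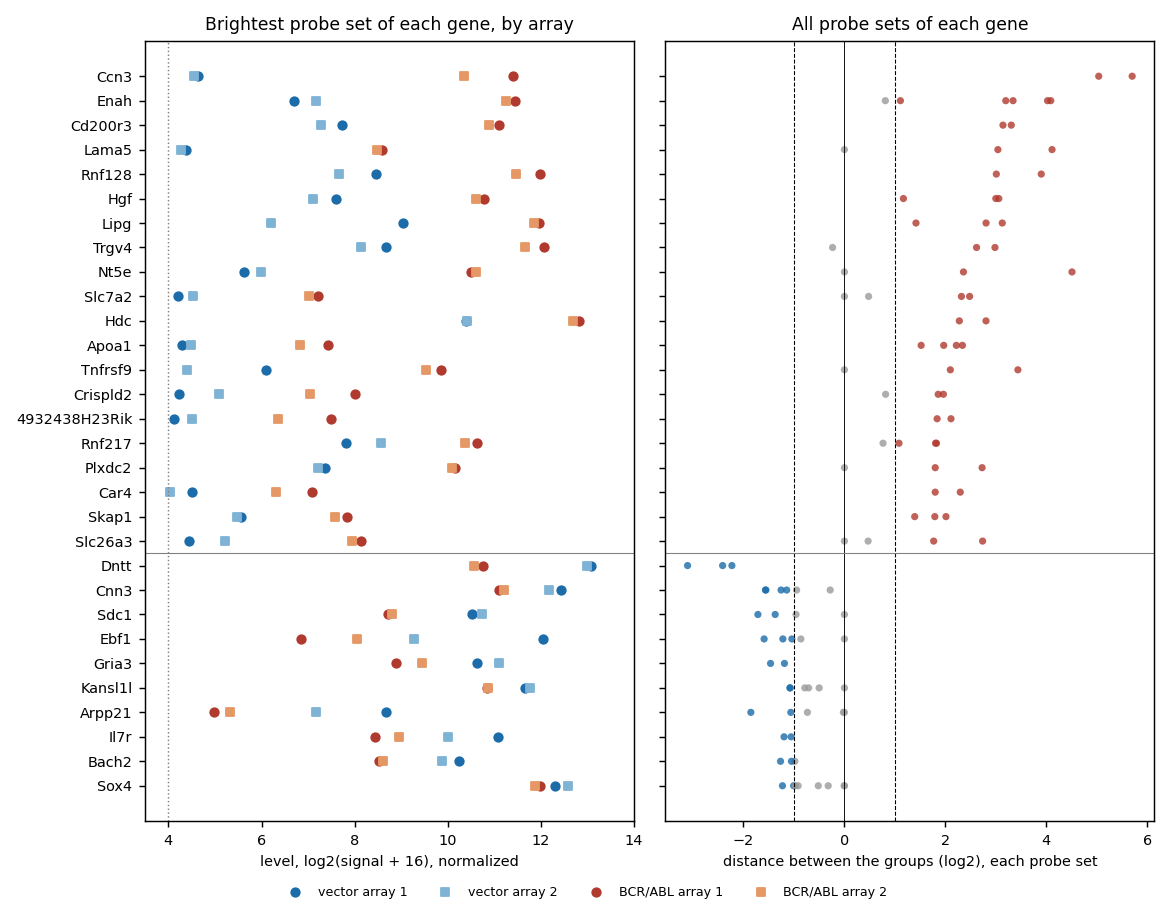
Left, the level of the brightest probe set of 20 higher and all 10 lower genes on each vector (blue) and BCR/ABL (red and orange) array, as normalized log2(signal + 16) with the floor of 4 dotted. Right, the distance between the groups for all probe sets of the same genes, with dashed lines at a distance of 1 in each direction; the 5 apart probe sets of Enah and the 3 of Dntt lie beyond the lines, and grey points are probe sets that are not 2-fold apart.

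Markers of mast cells and basophils were higher in BCR/ABL cells nearly throughout. Of 13 measured of 15 listed markers, 11 were 2-fold apart and higher and 0 lower, and 2, Hdc and Cd200r3, rose in the limma test, while 11 had an unadjusted p under 0.05. The median log2 fold change was 2.67, beside 0.01 over all 18193 genes. The summed signal of the 13 markers was 12770 and 7771 in the vector arrays and 39331 and 38837 in the BCR/ABL arrays. Mcpt2, a mast cell protease, lay at 4.55 in both vector arrays and at 8.13 and 8.10 in the BCR/ABL arrays (limma adjusted p = 0.0751), and Tpsab1, a tryptase, at 4.07 and 4.04 against 6.88 and 7.20. Mcpt1, another mast cell protease, lay at 4.13 and 4.30 against 7.14 and 7.98. These 3 defining markers were near the floor of the scale in both vector arrays. Others were already strong there, such as Mcpt8, a basophil protease, at 11.85 and 11.35 against 13.11 and 13.16 (limma adjusted p = 0.0751). Ms4a2, the beta chain of the IgE receptor, lay at 9.84 and 9.82 against 11.62 and 11.67 (limma adjusted p = 0.0705). Fcer1a, the alpha chain, lay at 9.76 and 8.20 against 11.69 and 11.48. Mcpt4 and Mitf were not 2-fold apart, and Mcpt4 lay at 9.06 in vector array 1, level with 9.22 and 9.38 in the BCR/ABL arrays. The part of mast cell or basophil transcripts in the other differences was not tested.

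Markers of early lymphoid and B cells lay in the opposite direction. All 14 measured of 16 listed markers had negative log2 fold changes, with a median of -2.85; 7 were 2-fold apart and lower, 0 passed the limma test and 12 had an unadjusted p under 0.05. Their summed signal was 36995 and 14549 in the vector arrays and 3479 and 4532 in the BCR/ABL arrays. Rag1, a subunit of the V(D)J recombinase, lay at 10.86 and 9.19 against 4.71 and 6.50, and its partner Rag2 at 9.32 and 7.87 against 5.60 and 5.21. Ly6d, a surface marker of progenitors primed for the B lineage, lay at 9.83 and 8.15 against 4.27 and 4.90. Genes of the pre-B cell receptor, Vpreb1 and Igll1, did not reach a 2-fold distance, and in both of them vector array 2 was close to BCR/ABL array 2. Igll1 lay at 12.28 and 9.53 against 7.62 and 8.86. Pax5, the factor that commits cells to the B lineage, lay between 4.06 and 4.18 on all 4 arrays, near the floor. The median difference of the list was -1.41 without vector array 1 and -3.98 without vector array 2.

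**Figure D3:**
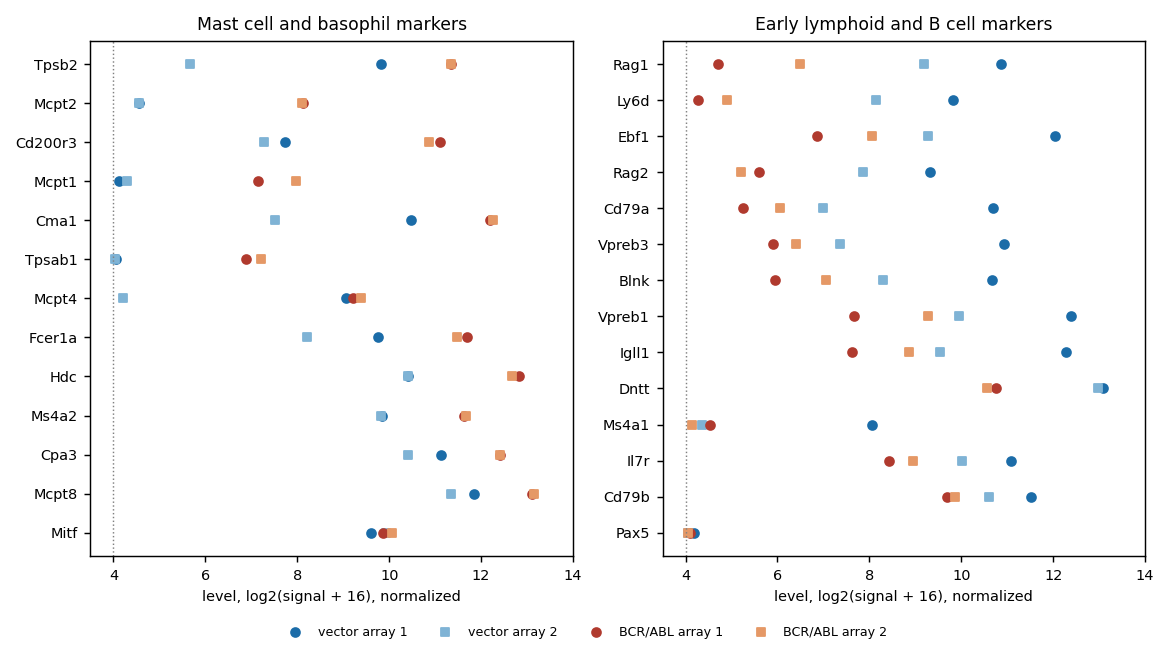
Levels of the 13 mast cell and basophil markers (left) and 14 early lymphoid and B cell markers (right) on each vector and BCR/ABL array, as normalized log2(signal + 16) with the floor of 4 dotted. Both BCR/ABL arrays lie to the right of both vector arrays for 12 of the 13 markers on the left with Mitf overlapping, and vector array 1 lies furthest right for most markers on the right.

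Markers of other cells were 2-fold apart in few cases. Of 11 T and NK cell markers 1 was, Klrd1, the NK receptor CD94, at 9.20 and 8.86 against 5.68 and 6.38, and the median of the list was -0.96. That median was -0.49 without vector array 1 and -1.43 without vector array 2. The T cell receptor chain gene Cd3e lay at 7.65 in vector array 1 and between 4.17 and 4.81 on the other 3 arrays. Of 12 neutrophil, 12 monocyte and macrophage, 10 dendritic cell, 11 erythroid, 11 megakaryocyte and 11 stromal and endothelial markers, 0 were 2-fold apart in either direction and 0 passed the limma test, with 1, 2, 4, 0, 5 and 0 at an unadjusted p under 0.05. The dendritic cell and megakaryocyte counts lay above the 12.7% of all genes at that p. Of the dendritic cell markers 9 were lower and 1 higher, and of the megakaryocyte markers 9 were higher and 2 lower. The megakaryocyte list had a median of 0.98, with Itga2b, integrin alpha IIb, at 7.85 and 8.10 against 9.59 and 9.01. The neutrophil median of 0.91 was 1.61 without vector array 1 and 0.19 without vector array 2. The dendritic cell median of -0.88 turned to 0.18 without vector array 1. Of 6 eosinophil markers 1 was 2-fold apart and higher.

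Promoter windows of the genes with several agreeing probe sets were read from RefSeq (assembly GRCm38.p6), each running from 250 bases before to 50 bases after the start of a transcript. Windows were found for 54 of the 67 higher genes and 9 of the 10 lower ones, 64 and 19 windows in all. The 4 windows below show a pair of mast cell and basophil genes that were higher and a pair of lymphoid genes that were lower, written 5′ to 3′ on the strand of the gene. Capitals in the first 3 mark a GATA motif (AGATAA or TGATAA on either strand, where matches may overlap) and in Il7r the STAT palindrome TTCNNNGAA. They lie at chr16:44943428-44943727 on the plus strand for Cd200r3, chr19:11623670-11623969 on the minus strand for Ms4a2, chr19:41029025-41029324 on the plus strand for Dntt and chr15:9529827-9530126 on the minus strand for Il7r.
Cd200r3: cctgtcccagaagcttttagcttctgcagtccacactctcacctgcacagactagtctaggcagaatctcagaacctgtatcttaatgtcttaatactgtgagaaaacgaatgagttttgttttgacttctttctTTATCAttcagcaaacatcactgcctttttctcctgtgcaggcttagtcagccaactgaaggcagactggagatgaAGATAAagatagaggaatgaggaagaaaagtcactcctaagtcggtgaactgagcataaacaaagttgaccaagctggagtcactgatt
Ms4a2: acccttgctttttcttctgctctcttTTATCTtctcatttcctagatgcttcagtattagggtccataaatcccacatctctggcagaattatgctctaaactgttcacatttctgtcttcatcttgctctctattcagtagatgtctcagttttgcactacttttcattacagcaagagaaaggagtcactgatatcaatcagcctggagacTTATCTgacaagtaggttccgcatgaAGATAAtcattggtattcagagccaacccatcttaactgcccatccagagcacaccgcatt
Dntt: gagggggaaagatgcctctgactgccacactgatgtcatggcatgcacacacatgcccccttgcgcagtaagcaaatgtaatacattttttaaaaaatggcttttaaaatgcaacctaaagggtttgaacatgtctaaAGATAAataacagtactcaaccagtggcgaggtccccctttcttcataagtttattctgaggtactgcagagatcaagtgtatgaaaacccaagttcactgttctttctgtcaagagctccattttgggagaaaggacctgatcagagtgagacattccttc
Il7r: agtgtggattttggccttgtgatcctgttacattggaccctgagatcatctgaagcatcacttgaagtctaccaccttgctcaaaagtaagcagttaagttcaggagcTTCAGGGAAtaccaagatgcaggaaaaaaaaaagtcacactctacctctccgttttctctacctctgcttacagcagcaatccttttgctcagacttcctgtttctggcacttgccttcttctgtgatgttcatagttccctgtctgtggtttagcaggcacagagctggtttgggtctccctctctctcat
The Ms4a2 window held 3 GATA matches, that of Cd200r3 held 2 and that of Dntt 1. Only windows that held the marked motif were printed, so these 4 cannot show how often a motif occurs on either side. Over all windows of the higher genes 12 of 64 (18.8%) held a GATA motif, beside 4 of 19 (21.1%) for the lower genes and 18.6% of all 32851 RefSeq windows of that length. The STAT palindrome was in 3 of 64 (4.69%), 3 of 19 (15.8%) and 8.30%, and the E-box CACGTG in 4 of 64 (6.25%), 0 of 19 and 7.15%. A match is a description of the letters and shows no binding.

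The remaining genes were read through 27 lists of pathways and functions, each gene by its brightest probe set, and set beside the 1.68% of all genes that were 2-fold higher and the 0.352% that were lower. An unadjusted p under 0.05 was reached by 2306 of all 18193 genes (12.7%), and the counts at that p in the lists stand beside this share. Steroid synthesis and aldo-keto reductases held the largest difference on the array. Of 15 measured members 5 rose in the limma test and 10 did not pass. Akr1c18, an aldo-keto reductase that inactivates progesterone, rose from 4.68 and 4.04 to 12.75 and 12.58, by 8.30 (SE 0.45, limma adjusted p = 0.0152). Its relatives Akr1c12, Akr1c13 and Akr1c19 rose by 4.93, 2.82 and 3.25, with limma adjusted p-values of 0.0196, 0.0152 and 0.0448. Cyp11a1, which makes pregnenolone from cholesterol, rose from 7.53 and 6.41 to 12.08 and 12.00 (limma adjusted p = 0.0333), although 1 of its 3 probe sets differed by 0.09. The Akr1c genes are close relatives, and probes designed for one may bind transcripts of another. The median of the 15 was 0.63.

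Genes for serotonin and histamine showed 5 of 14 members 2-fold higher, of which Tph1 and Hdc rose. Tph1, the rate-limiting enzyme of serotonin synthesis outside the brain, rose from 5.11 and 4.75 to 10.85 and 10.58, by 5.78 (SE 0.29, limma adjusted p = 0.0125). Ddc, the next enzyme of that pathway, lay at 5.42 and 5.09 against 7.47 and 7.29, and Slc6a4, the serotonin transporter, at 5.77 and 4.62 against 7.86 and 8.16. Maob, which breaks monoamines down, lay at 4.07 and 4.03 against 7.76 and 7.46 (limma adjusted p = 0.0751). Of 16 granzyme and granule genes, Gzmb, granzyme B, rose by 3.81 (SE 0.26, limma adjusted p = 0.0217), from 7.44 and 6.99 to 10.99 and 11.07. Its relative Gzma lay the other way, at 8.45 and 7.74 in the vector arrays against 6.49 and 5.77.

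Enzymes and receptors of the eicosanoids had 4 of 17 members 2-fold higher and 0 lower, with 0 past the limma test and 9 at an unadjusted p under 0.05. Alox5, the 5-lipoxygenase that starts leukotriene synthesis, lay at 7.87 and 6.59 against 11.36 and 11.19 (limma adjusted p = 0.0778). Alox15, a lipoxygenase that makes hydroxy fatty acids and lipoxin precursors, lay at 5.44 and 5.31 against 7.98 and 7.54. Ptgs2, the inducible cyclooxygenase, lay at 5.81 and 5.64 against 9.48 and 8.20. Ltb4r1, the high-affinity receptor for leukotriene B4, lay at 7.68 and 7.65 against 9.34 and 9.15.

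Of 22 secreted interleukins and growth factors 8 were 2-fold higher and 0 lower, and Il6 and Il4 rose in the limma test. Il4, the type 2 cytokine of basophils and mast cells, rose from 5.77 and 5.40 to 10.76 and 10.75, by 5.17 (SE 0.34, limma adjusted p = 0.0196). Il6 rose from 5.63 and 5.92 to 11.40 and 10.90, by 5.38 (SE 0.46, limma adjusted p = 0.0421). Il13, whose product shares a receptor chain with interleukin 4, lay at 4.20 and 4.73 against 8.24 and 8.09 (limma adjusted p = 0.0751). Osm, oncostatin M, lay at 7.89 and 7.72 against 11.28 and 10.66 (limma adjusted p = 0.0705), and Lif, whose product signals through the same gp130 chain, at 6.22 and 5.18 against 10.04 and 9.04. Csf2, the growth factor GM-CSF, lay at 4.65 and 4.81 against 8.82 and 7.78. For Il1b the vector arrays were far apart, at 9.04 and 5.54, and the BCR/ABL arrays lay at 10.88 and 10.93. Hgf, described above, was the eighth of these genes.

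Chemokines had 5 of 16 members 2-fold higher and 1 lower, with 0 past the limma test and 8 at an unadjusted p under 0.05. Ccl3 and Ccl4, a pair of inflammatory chemokines, lay at 8.75 and 9.31 against 12.91 and 12.52 for Ccl3 (limma adjusted p = 0.0550) and at 7.69 and 8.52 against 11.20 and 10.90 for Ccl4 (0.0705). Ccl24, an eotaxin that acts on CCR3, lay at 4.29 and 4.55 against 7.87 and 7.62 (limma adjusted p = 0.0703). Ccl6 was already strong in the vector arrays, at 11.49 and 9.70, against 13.24 and 13.14. Xcl1, a chemokine of lymphocytes, lay at 7.76 and 5.76 against 4.09 and 4.58, the reverse order.

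Receptor chains had members on both sides. Of 27 cytokine receptor chains 2 were 2-fold higher and 2 lower, 0 passed the limma test and 9 had an unadjusted p under 0.05. Il2ra, the alpha chain of the interleukin 2 receptor (CD25), lay at 5.98 and 5.30 against 10.05 and 8.42, with both probe sets apart. Il1r2, the decoy receptor for interleukin 1, lay at 6.37 and 5.64 against 9.13 and 9.02. Il6st, the gp130 chain through which interleukin 6, oncostatin M and LIF signal, lay lower, at 10.34 and 10.41 in the vector arrays against 8.83 and 8.89, though 1 of its 4 probe sets was 2-fold apart. Il7r was the other lower chain.

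Downstream of the kinase, 22 JAK, STAT, PIM and SOCS genes had 1 member 2-fold higher, 0 past the limma test and 5 at an unadjusted p under 0.05. That member was Cish, a feedback inhibitor induced by STAT5, at 9.13 and 7.99 against 11.08 and 10.83. Socs2, another such inhibitor named after its values were seen, had 2 of 6 probe sets apart and all 6 higher, by 0.57 to 2.18. Of 24 ERK feedback and AP-1 genes 3 were 2-fold higher and 0 lower, with 0 past the test and 9 at an unadjusted p under 0.05. They were Spry4, an inhibitor of receptor signalling to ERK, at 5.48 and 5.67 against 7.21 and 7.05, the AP-1 subunit Fosl1 and the growth factor response gene Phlda1. For Spry4, 2 of 4 probe sets were apart and 1 differed by -0.20. The median of this list was 0.46. Among 19 genes of antigen and IgE receptor signalling, Lat, the membrane adaptor of both receptors, rose from 8.30 and 8.50 to 10.42 and 10.44, by 2.03 (SE 0.16, limma adjusted p = 0.0333). Its partner Lcp2, the adaptor SLP-76, lay at 9.89 and 9.88 against 11.06 and 10.94 (limma adjusted p = 0.0751), while the median of these 19 genes was -0.08.

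Differences of actin, adhesion and semaphorin genes lay mostly in single genes, while the matrix protease list had a higher median. Of 24 actin regulators, Enah and Podxl rose, 6 had an unadjusted p under 0.05 and the median was 0.05. Podxl, podocalyxin, a sialomucin related to CD34 that is linked to actin through ERM proteins, rose from 8.97 and 8.86 to 11.72 and 11.68, by 2.79 (SE 0.12, limma adjusted p = 0.0125). Of 24 integrin, cadherin and selectin ligand genes, Cdh1, E-cadherin, rose from 7.57 and 7.22 to 11.77 and 11.68, by 4.33 (SE 0.35, limma adjusted p = 0.0333). Itga2, the integrin alpha 2 chain of the collagen receptor, lay at 4.12 and 4.08 against 7.16 and 6.33. The median of these 24 genes was 0.16, and 5 had an unadjusted p under 0.05. Of 19 semaphorin, plexin and neuropilin genes, Plxdc2 rose and Nrp1, neuropilin-1, lay at 10.09 and 10.11 against 11.12 and 11.36. For Nrp1, 2 of 4 probe sets were apart and 1 differed by -0.05. The median of these 19 genes was 0.06, and 5 had an unadjusted p under 0.05. Of 17 matrix proteases and inhibitors 3 were 2-fold higher, and Timp1, an inhibitor of metalloproteinases, rose from 4.26 and 4.18 to 7.18 and 7.12 (limma adjusted p = 0.0333). Of the 17, 13 had positive and 4 negative differences, and 6 had an unadjusted p under 0.05. Their median was 0.95, and 0.41 without vector array 2.

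Transcription factors of the lineages had 3 of 32 members 2-fold higher and 1 lower, with 0 past the limma test and 10 at an unadjusted p under 0.05. Bhlhe40, a basic helix-loop-helix repressor, lay at 8.24 and 7.21 against 11.28 and 10.91, and Id1, an inhibitor of E proteins, at 8.39 and 8.95 against 10.55 and 10.56. The lower one was Ebf1. Gata2, a factor of stem cells and of mast cells and basophils, lay at 12.25 and 12.19 against 12.91 and 12.71, a difference of 0.59 that was under 2-fold. Of 15 Notch and lymphoid priming genes 4 were 2-fold lower and 0 higher, with a median of -0.99; 0 passed the test and 11 had an unadjusted p under 0.05. Beside Dntt, Rag1 and Il7r, the fourth was Foxo1, at 9.77 and 8.67 against 7.63 and 7.37, with 1 of 4 probe sets apart. Dntt, Rag1 and Il7r are also on the lymphoid marker list. Of 9 MHC class II genes 1, H2-Ob, was 2-fold lower, at 10.83 and 10.62 against 8.99 and 8.28. The median of the 9 was -0.27, which turned to 0.58 without vector array 1. Their summed signal was 42083 and 13676 in vector arrays 1 and 2, and 19831 and 17431 in the BCR/ABL arrays. In the limma test 0 passed, with 2 at an unadjusted p under 0.05.

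Genes of DNA replication and mitosis showed little difference, while cell cycle inhibitors and G1 cyclins had members on both sides. Of 23 DNA replication and mitosis genes 0 were 2-fold apart and 0 passed the limma test, 2 had an unadjusted p under 0.05, and the median was -0.06. Of 20 cell cycle inhibitors and G1 cyclins 3 were 2-fold higher and 1 lower. In this list 1 passed the limma test and 7 had an unadjusted p under 0.05. Positive differences were seen in 10 and negative ones in 10, and the median was -0.01. Cdkn2b, the inhibitor p15, lay at 4.58 and 4.44 against 7.78 and 7.63, and Cdkn2a, which encodes p16 and ARF, at 5.18 and 4.06 against 8.05 and 7.14. Cdkn1a, the inhibitor p21, lay at 9.55 and 9.54 against 11.05 and 10.70, with both of its probe sets apart. Trp53inp1, a target of p53, gave the 1 lower call of the limma test: it fell from 11.76 and 11.83 to 10.49 and 10.40, by 1.35 on the log2 scale (SE 0.12, limma adjusted p = 0.0470). Its adjusted p was 0.0799 when the 4 arrays compared were fitted alone. Of 14 survival and death genes Perp, another p53 target, rose from 9.84 and 9.85 to 11.99 and 11.92, by 2.10 (SE 0.16, limma adjusted p = 0.0289).

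In the metabolic lists, each gene by its brightest probe set, 0 members passed the limma test. All 19 measured ribosome biogenesis genes had positive differences, but their median was 0.17, 0 were 2-fold apart and 3 had an unadjusted p under 0.05. Of 15 glycolysis and lactate genes 14 had positive differences, with a median of 0.30 and 9 at an unadjusted p under 0.05. Slc16a3, the lactate exporter MCT4, was the 1 that was 2-fold higher, at 7.08 and 7.50 against 9.84 and 9.91. Of 20 genes of polyamine, serine and amino acid supply 2 were 2-fold higher, 11 had an unadjusted p under 0.05 and the median was 0.39. The 2 were Slc7a11, the cystine importer, at 5.50 and 4.62 against 7.56 and 7.44, and Trib3, a stress-induced pseudokinase, at 5.65 and 5.72 against 7.92 and 7.42. Of 16 carbonic anhydrase and ion handling genes 3 were 2-fold higher, Car4, Car8 and Trpm4, with 6 at an unadjusted p under 0.05 and a median of 0.37. When arrays were centred on their medians in place of quantile normalization, the median of all genes shifted from 0.01 to 0.20, and the ribosome biogenesis and glycolysis medians moved with it to 0.38 and 0.49.

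Among the last lists, 17 interferon response genes and 24 small GTPase regulators had 0 members 2-fold apart, with medians of 0.23 and 0.01. The interferon median turned to -0.25 without BCR/ABL array 1, and the GTPase median to -0.03 without vector array 1 and -0.05 without BCR/ABL array 1. In the limma test 0 of them passed, with 2 and 4 at an unadjusted p under 0.05. Of 14 surface proteins reported on leukaemic stem cells, Il2ra was the 1 that was 2-fold apart, and 0 passed the limma test while 3 had an unadjusted p under 0.05.

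**Figure D4:**
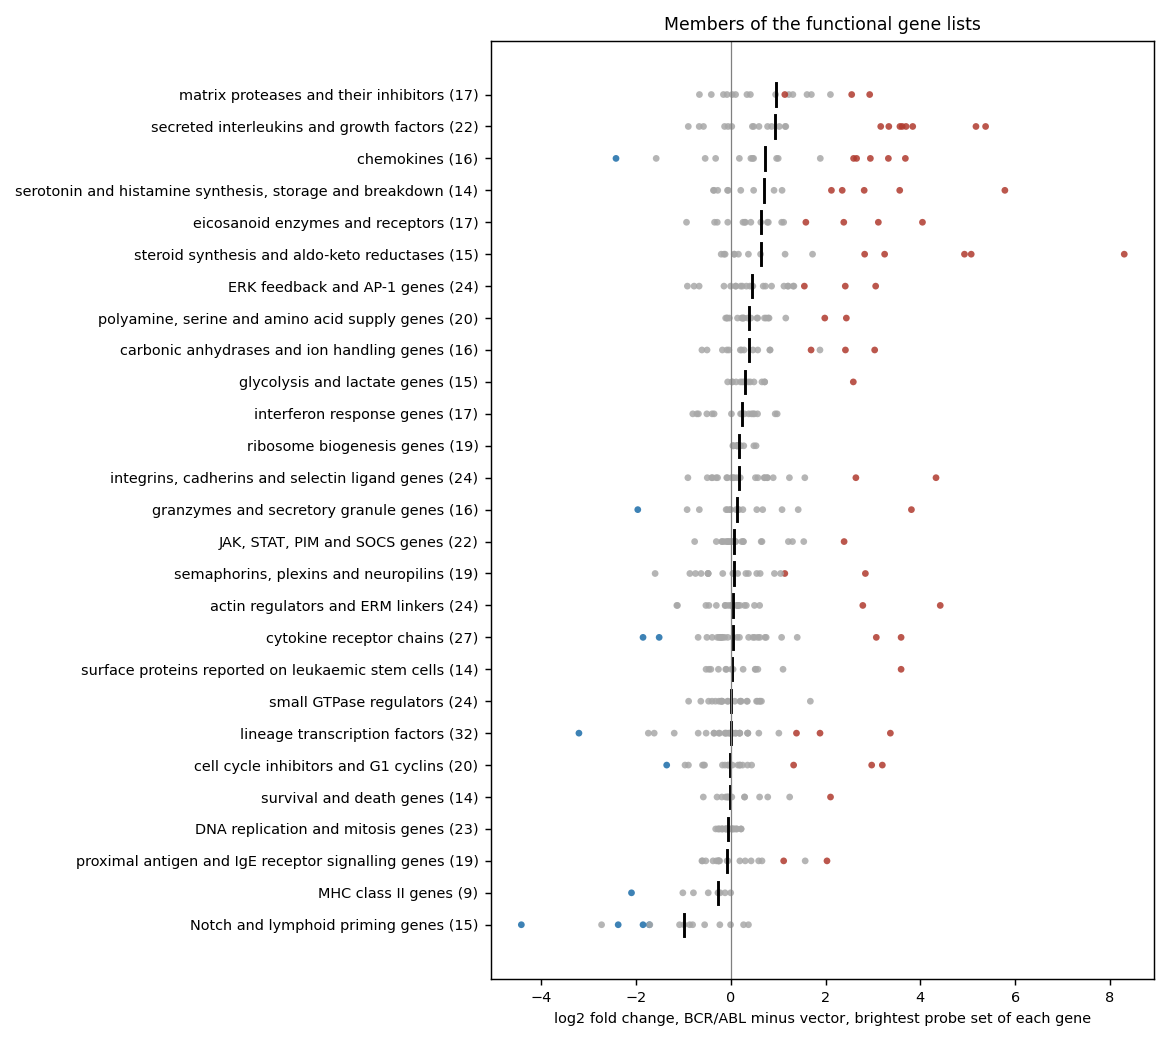
Log2 fold change (BCR/ABL minus vector, brightest probe set) of each member of the 27 functional lists, 1 row a list with its number of measured members, red and blue for members 2-fold higher and lower, and a black bar at the median of the list. The interleukins and growth factors hold 8 members 2-fold higher and the chemokines 5, while the DNA replication and ribosome biogenesis lists lie close to the grey line at the median of all genes.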

How the data were processed

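RNA of sorted cells was measured on 6 arrays, 2 in each of 3 groups taken from the sample titles. The deposited values were linear intensity values, 1 per probe set, made with Affymetrix Expression Console and MAS5 per the submitters' processing notes. The probe set names belong to a 3-prime mouse array, whereas the design text names a whole-transcript array, and the labelling that was used remains unknown. Median intensity ran from 35.6 to 57.2, 36.1% to 41.5% of the values of an array lay below 16, and detection calls were not used. Precision is limited by the number of arrays.

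Of 45101 probe sets, 64 controls were left out and the 35877 with a symbol in the platform annotation were tested; 34945 had 1 symbol, 932 several and 9160 none. Of those with 1 symbol, 34741 matched a RefSeq gene (GRCm38.p6) by Entrez identifier, with 0 symbols that differed. The deposited intensity was turned into log2(value + 16) and quantile normalized over all 6 arrays together. It was tested with limma 3.58.1 in R 4.3.3 (lmFit, and eBayes with trend=TRUE) in 1 model over all 6 arrays, with 3 residual and 2.97 prior degrees of freedom, two-sided, with Benjamini-Hochberg adjustment over the 35877 probe sets. The procedure was tested on simulated data. Genes with at least 2 probe sets 2-fold apart one way and none the other way were ranked by their second largest distance. The text names the first 20 higher and first 10 lower, members of 38 gene lists that were 2-fold apart or past the test, and markers of each cell type; others are said to be chosen after their values were seen. The comparison, its members and the lists were chosen with earlier results of these data known. Alternatives changed the added constant, the normalization, a filter on low values, the arrays used, the replicate block, the prior of the test, the distance and the probe set of a gene.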

Additional observations from a re-analysis of the deposited data

Results flagged for a closer look

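Probe sets without a gene symbol were left out of the comparisons above. Of these 9160 probe sets, 43 (0.469%) were 2-fold higher and 73 (0.797%) were 2-fold lower in both BCR/ABL arrays than in both vector arrays, against 1.28% and 0.334% of the probe sets with a symbol. The lower ones therefore outnumbered the higher ones among unnamed probe sets, the reverse of the named ones, and no test of this difference was made. Groups of 2 arrays are too small to mark a single array as outlying.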

How the results depend on the processing

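The number of probe sets past the limma threshold, 22, was 83 with an added constant of 1, 298 with arrays centred on their medians (265 higher and 33 lower), 132 when probe sets under the 50th percentile of mean level were left out, and 42 with a robust prior. It was 0 with a prior without a trend, where the smallest adjusted p was 0.0539 and 4072 probe sets had an unadjusted p under 0.05. With 1 array left out it ran from 0 to 38; it was 0 without either BCR/ABL array, with 2167 and 2684 probe sets at an unadjusted p under 0.05. The 578 probe sets 2-fold apart were 1753 with a constant of 1, 291 with 64 and 300 above the 50th percentile. They were 15514 at any distance above 0 and 137 at a distance of at least 4-fold, and from 851 to 3153 with 1 array left out. The 77 genes with several agreeing probe sets were 159, 34, 36, 2112 and 14 under the same 5 settings, and from 107 to 343 with 1 array left out. These counts are larger with an array left out because fewer arrays have to agree. The causes of the other shifts were not tested.

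With the replicate number as a block 22 probe sets passed, 22 higher, and 14 of the 20 genes were shared with the reported set. Same-numbered vector and BCR/ABL arrays had deviations from their group means that correlated at -0.0800. With the deviations of the imatinib arrays, those of the vector correlated at 0.160 and those of BCR/ABL at 0.146. With 2 arrays a group, these values cannot show whether same-numbered arrays share a mouse or a batch. Of 141 named genes, 0 changed sign when tested under any alternative that was run. Many were named because they were 2-fold apart, and for these the count cannot show how stable the sign is. Where the groups do not overlap, leaving out an array cannot reverse the sign. The replicate block, the change of prior and the removal of imatinib arrays left the log2 fold changes of the called genes as they were. Of 380 list medians under an alternative, 24 moved by over 1 SD and 44 changed sign, in 18 of the 38 lists. With the block, the 1 lower call, Trp53inp1, had a limma adjusted p of 0.0734. The higher calls that did not pass with it were Akr1c19 (limma adjusted p = 0.0879), Lat (0.0734), Timp1 (0.0734), Car4 (0.0679) and Il6 (0.0584).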
